A study of Mus musculus with 6 samples.

Results

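The 10 genes described here encode the machinery that shows peptides on MHC class I molecules: H2-K1, H2-D1, B2m, Tap1, Tap2, Tapbp, Psmb8, Psmb9, Psmb10 and Nlrc5. They were chosen by symbol, and all 10 were found among the 16135 genes listed in the sample tables. RNA was sequenced from flow-sorted common dendritic cell progenitors (CDPs), which give rise to dendritic cells, taken from the bone marrow of wildtype C57BL/6 mice aged 6 to 8 weeks. CDPs were sorted by CD115, the surface receptor encoded by Csf1r, and by Ly6C, a surface antigen of monocytes and their precursors. The sort gave the subsets CD115+Ly6C- (here single-positive), CD115+Ly6C+ (double-positive) and CD115-Ly6C- (double-negative), and each has 2 libraries. The labels name no treatment in any group. The labels do not say whether the libraries of a subset came from separate mice or sorts, so p-values measure the spread between these libraries, which may be technical.

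MHC class I molecules are made of a heavy chain and beta-2 microglobulin, and they carry short peptides to the cell surface for CD8 T cells to inspect. The peptides are cut by proteasomes, whose catalytic subunits are exchanged for inducible ones in cells exposed to interferon and in many blood cells, and are then carried into the endoplasmic reticulum by the TAP transporter. Tapasin holds an empty class I molecule at the transporter while it is loaded, and NLRC5 is a transactivator that works at the promoters of class I genes. Dendritic cells use this pathway to prime CD8 T cells, including with antigens they take up from other cells.

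Expected counts summed to between 17961541 and 19450329 per library, and 13307 to 14127 genes had reads. Progenitor markers were present in every library, with Flt3, Kit, Csf1r, Irf8, Spi1, Tcf4, Id2 and Zbtb46 summing to between 3904 and 4447 CPM (counts per library size, with TMM scaling by the trimmed mean of M-values). Csf1r, which encodes the sorted antigen CD115, stood at 414 and 513 CPM in single-positive, 553 and 531 in double-positive and 213 and 259 in double-negative cells, so its transcript was lower but present where the protein was gated out. Markers of other cells moved with the subsets. The summed level of 8 monocyte genes was 5770.2 and 6504 CPM in double-positive cells, 2869 and 3095 in single-positive cells and 1054 and 1328 in double-negative cells. The summed level of 8 neutrophil genes was 3724 and 3981 CPM in double-positive cells, 217.5 and 861.7 in single-positive cells and 141.5 and 298.2 in double-negative cells. All 8 neutrophil genes were higher in double-positive cells than in either other subset by edgeR (adjusted p under 0.05). So were 8 of 8 monocyte genes against double-negative cells and 4 of 8 against single-positive cells. Of all genes tested, 19.2% were called higher against double-negative cells and 5.26% against single-positive cells. The monocyte genes include Csf1r, the gene of the sorted antigen, so its difference across the CD115 gate is no independent result. The 8 B cell genes summed to 92.8 to 109.7 CPM, of which Cd79b made up most, and Pax5 had reads in 1 library. Cd79a and Ebf1 were higher in double-negative cells than in single-positive cells. The T and NK cell genes summed to 0.5 to 4.1 CPM, with Cd3e read in 1 library. In such bulk samples fewer cells of a type and less RNA per cell cannot be told apart, and the part of these cells in the results below was not tested.

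All 10 genes were expressed in every library. Levels between genes were compared as FPKM, the authors' fragment counts scaled by transcript length and library size. B2m was the most abundant at a mean of 3384 FPKM over the 6 libraries, followed by H2-D1 at 1267 and Psmb8 at 754. H2-K1 (537.5 FPKM) and Psmb9 (374 FPKM) came next, and their ranges over libraries overlapped. Tapbp stood at 130.4 FPKM. Psmb10 (82.8 FPKM), Tap2 (78.9) and Tap1 (67.5) overlapped in range, and Nlrc5 was the scarcest at 4.33 FPKM. The order of B2m over H2-D1 and of H2-D1 over Psmb8 held in each library, whereas H2-K1 was above Psmb8 in 1 library of double-negative cells and below it in the other 5.

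**Figure D1:**
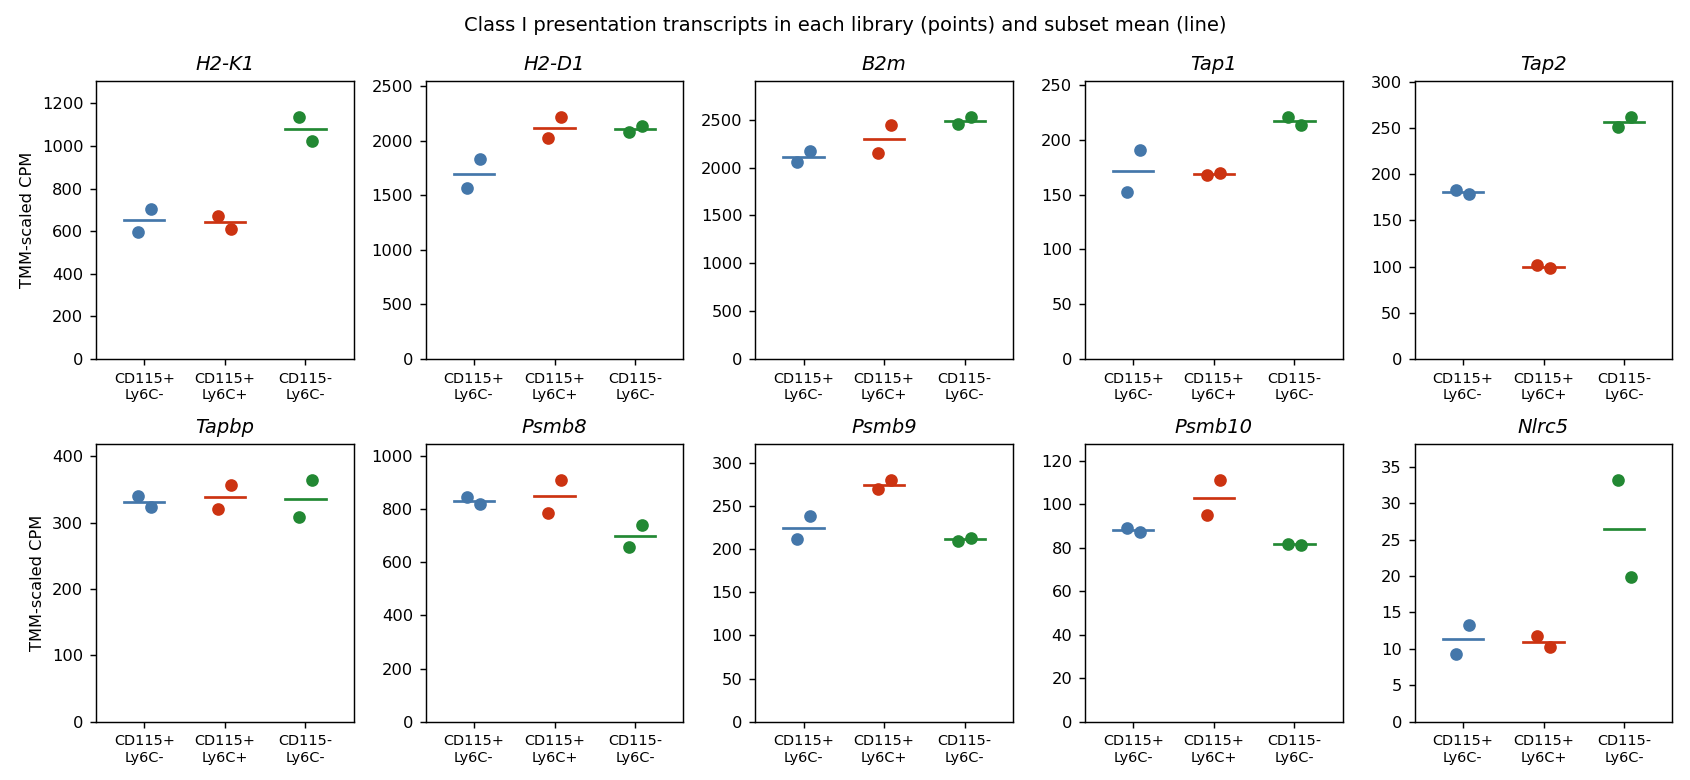
TMM-scaled CPM of the 10 class I genes in each library (points, 2 per subset) with the subset mean (line), each panel on its own linear axis from 0. Tap2 takes 3 separate levels, from 98.6 and 101 CPM in double-positive cells to 251 and 261 CPM in double-negative cells, while H2-K1 and Nlrc5 are high in double-negative cells alone and Tapbp overlaps throughout.

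Tests were made on expected counts by edgeR's quasi-likelihood F test over 12127 genes, with Benjamini-Hochberg adjustment over all of them and a threshold of 0.05. In double-positive against single-positive cells, 1 of the 10 genes, Tap2, passed and was lower (background 4.34% lower, 5.26% higher and 9.60% in either direction). In double-negative against single-positive cells, 3 passed and were higher, namely H2-K1, Tap2 and Nlrc5 (background 8.43% higher, 6.78% lower and 15.2% in either direction). In double-positive against double-negative cells, H2-K1, Tap1, Tap2 and Nlrc5 were lower and Psmb9 and Psmb10 were higher, 6 of 10 in all (background 20.1% lower, 19.2% higher and 39.3% in either direction). The CPM of the subsets did not overlap for 3 genes higher and 1 lower in the first comparison (background 28.8% and 28.4%), for 6 higher and 2 lower in the second (32.1% and 29.8%) and for 3 higher and 5 lower in the third (34.8% and 37.8%). By unadjusted p under 0.05, 2 of the 10 genes were higher in the first of these comparisons, where edgeR called 0 higher after adjustment, DESeq2 1 and limma 0. Each subset serves in 2 of the 3 comparisons, so their results are not independent. The median log2 fold change of the 10 genes was 0.03, 0.27 and -0.05 in the 3 comparisons, beside -0.01, 0.02 and -0.03 over all genes tested. On simulated counts for double-positive against single-positive cells, 78% of genes changed 2-fold were recovered (11915 genes), and 7 unchanged genes were called. Every simulated gene had the same dispersion, so the share may differ for genes that vary more or less.

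**Figure D2:**
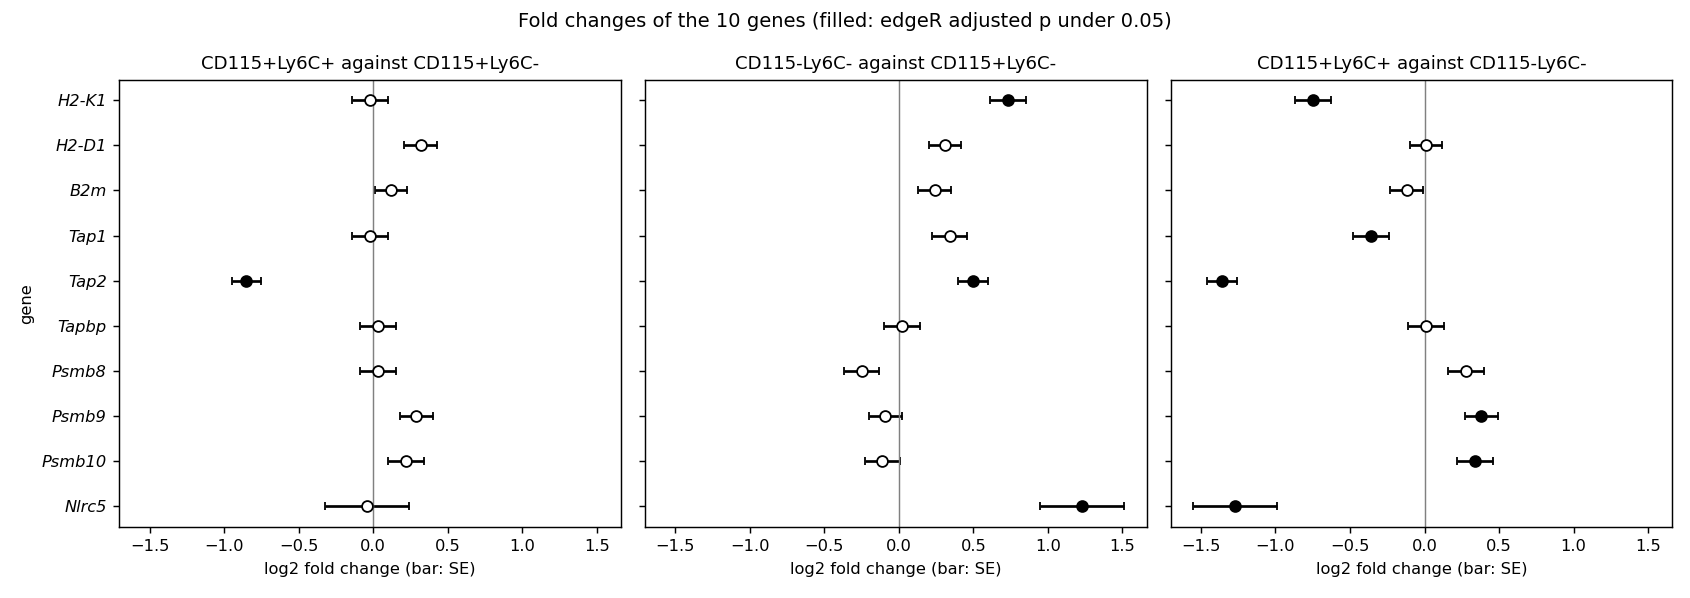
Log2 fold change (point) and SE (bar) of each gene in the 3 comparisons of subsets, with filled points for edgeR adjusted p under 0.05. Tap2 passes in all 3 panels, H2-K1 and Nlrc5 pass in both panels with double-negative cells, and Psmb9 and Psmb10 pass on the opposite side to Tap1 in the right panel.

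Tap2 was the 1 gene of the 10 that was called in all 3 comparisons. It encodes a chain of the peptide transporter of the endoplasmic reticulum (Entrez gene 21355, chromosome 17, 34204479 to 34216321 of GRCm38, plus strand). It stood at 182.6 and 178.8 CPM in single-positive cells, at 101 and 98.6 CPM in double-positive cells and at 251 and 261 CPM in double-negative cells. No library of a subset overlapped with a library of another. Against single-positive cells, Tap2 was 1.81-fold lower in double-positive cells (log2 fold change -0.85 (SE 0.10), edgeR adjusted p = 0.00241) and 1.42-fold higher in double-negative cells (0.50 (SE 0.10), edgeR adjusted p = 0.0126). Between double-positive cells and double-negative cells the log2 fold change was -1.36 (SE 0.10), a 2.56-fold difference (edgeR adjusted p = 4.37e-05). The calls that involve double-positive cells held whichever library was left out, while that of double-negative against single-positive cells was lost without any 1 library of those subsets (edgeR adjusted p = 0.0631 to 0.075). The order of Tap2 was the reverse of that of the summed monocyte genes given above. It was the order of the receptor genes Flt3 and Kit, which were called in all 3 comparisons too. They come from the 8 progenitor genes named above, which did not move together. In double-positive against double-negative cells, 3 of those 8 were higher and 4 lower (background 19.2% and 20.1%). Csf1r was among the higher, by a log2 fold change of 1.2. The log2 fold changes, in the order double-positive against single-positive, double-negative against single-positive and double-positive against double-negative, were -0.89, 0.74 and -1.62 for Flt3 and -0.91, 0.82 and -1.73 for Kit. Their part in the result was not tested.

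Tap1, the gene of the other chain of the transporter, did not follow Tap2 across the CD115+ subsets (Entrez gene 21354, chromosome 17, 34187556 to 34197225, plus strand). Its CPM was 152 and 191 in single-positive cells, 167 and 169.8 in double-positive cells and 220.4 and 213 in double-negative cells. The libraries of both CD115+ subsets overlapped, and those of double-negative cells lay above all of them. Against single-positive cells the log2 fold change was -0.02 (SE 0.12) in double-positive cells and 0.34 (SE 0.12) in double-negative cells (edgeR adjusted p = 0.921 and 0.101). The difference of double-negative from single-positive cells passed with library totals (0.46, edgeR adjusted p = 0.0424) and with limma (0.46, adjusted p = 0.0378). Both settings moved the median of all genes there, to 0.14 and 0.10. Tap1 was lower in double-positive cells than in double-negative cells by a log2 fold change of -0.36 (SE 0.12, edgeR adjusted p = 0.0469). That call was lost without any 1 library of the pair (edgeR adjusted p = 0.119 to 0.161), with size factors of the RLE method (0.0528), with the replicate block (0.0579) and with the length trend removed (0.114).

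Since both transporter genes are read in the same library, their ratio does not depend on how libraries are scaled. The ratio of Tap2 to Tap1 in FPKM was 1.44 and 1.12 in single-positive cells, 0.724 and 0.695 in double-positive cells, and 1.36 and 1.47 in double-negative cells. The libraries of double-positive cells lay below all others, and those of the other subsets overlapped. With 2 libraries a subset no exact permutation test can pass, so the ratios are given as values, and this ratio was chosen after its values were seen.

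Tapbp, which encodes tapasin, was called in no comparison (Entrez gene 21356, chromosome 17, 33919478 to 33929290, plus strand). It stood at 340.3 and 323 CPM in single-positive cells, 320.2 and 357 in double-positive cells and 308 and 364 in double-negative cells. The 3 log2 fold changes were 0.03, 0.02 and 0.01, each with an SE of 0.12 (edgeR adjusted p = 0.896, 0.925 and 0.955), and the libraries of all subsets overlapped. A part of its exons, 149 bases, is shared with the protein-coding gene Zbtb22 on the same strand in GENCODE M21, and 904 with a non-coding gene on the other strand. The strandedness of the kit is not given in the sources used here, so reads of genes on opposite strands cannot be told apart in shared bases. Reads of the bases shared with Zbtb22 could not be told apart by strand with any kit. For Tap1 and Psmb9, which start side by side on opposite strands, the shared part is 212 bases. Tap2 shares 533 bases (14.1% of its exon bases) with the non-coding gene Gm15821 and 165 (4.36%) with Gm20496, both on the other strand. Psmb8 shares 498 bases (14.7%) with Gm20496. The limit for opposite strands therefore applies to the counts behind the Tap2 calls and the ratio of Tap2 to Tap1.

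The class I heavy chains H2-K1 and H2-D1 differed in how they varied. H2-K1 (Entrez gene 14972, chromosome 17, 33996012 to 34000619, minus strand) stood at 597 and 704 CPM in single-positive cells, 672 and 610.5 in double-positive cells and 1135 and 1022 in double-negative cells. Its libraries overlapped between the CD115+ subsets and were highest in double-negative cells. H2-K1 was higher in double-negative cells than in single-positive cells by 1.66-fold (log2 fold change 0.73 (SE 0.12), edgeR adjusted p = 0.00734) and lower in double-positive cells than in double-negative cells by a log2 fold change of -0.75 (SE 0.12, edgeR adjusted p = 0.00193). No difference was detected between the CD115+ subsets (-0.02 (SE 0.12), edgeR adjusted p = 0.934). The call against single-positive cells was lost without single-positive replicate 1 or double-negative replicate 1 (edgeR adjusted p = 0.0648 and 0.0521), and the call against double-positive cells held whichever library was left out.

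H2-D1 (Entrez gene 14964, chromosome 17, 35263094 to 35267497, plus strand) stood at 1564 and 1831 CPM in single-positive cells, 2024 and 2214 in double-positive cells and 2077 and 2134 in double-negative cells. The single-positive libraries were the lowest, and those of the other subsets overlapped. Neither difference from single-positive cells passed (log2 fold change 0.32 (SE 0.11) in double-positive cells and 0.31 (SE 0.11) in double-negative cells, edgeR adjusted p = 0.11 and 0.0994). With DESeq2 both did (adjusted p = 0.0384 and 0.0494). With library totals the difference of double-negative cells passed (0.43, edgeR adjusted p = 0.0328). Between double-positive cells and double-negative cells the log2 fold change of H2-D1 was 0.01 (SE 0.11, edgeR adjusted p = 0.959).

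Within a library, the ratio of H2-K1 to H2-D1 in FPKM was 0.399 and 0.402 in single-positive cells, 0.347 and 0.288 in double-positive cells and 0.571 and 0.5005 in double-negative cells. The 3 subsets did not overlap in this ratio, which was also chosen after its values were seen. Heavy chain genes are alike in sequence, and RSEM can share reads among them by estimation, so the split between them may be uncertain. The expected counts of H2-K1 were whole except in single-positive replicate 1 (11379.89). Those of H2-D1 were whole except there (29816.11) and in double-positive replicate 1 (36302.98). Few reads were thus split into fractions. Whole counts cannot show whether a read that matches both genes was given wholly to the wrong one, and this was not tested. Counted as 1 feature, H2-K1 and H2-D1 together were higher in double-negative cells than in single-positive cells by a log2 fold change of 0.44 (SE 0.11, edgeR adjusted p = 0.033). The other comparisons of that sum did not pass, at 0.23 (SE 0.11, edgeR adjusted p = 0.208) for double-positive against single-positive cells and -0.21 (SE 0.11, edgeR adjusted p = 0.173) for double-positive against double-negative cells. The latter is the comparison in which H2-K1 by itself was called. With all 13 listed class I heavy chains in 1 feature, the difference of double-negative cells from single-positive cells was 0.47 (SE 0.11, edgeR adjusted p = 0.0263). Neither other comparison of these 13 passed. Double-positive against single-positive cells gave 0.20 and double-positive against double-negative cells -0.27 (SE 0.11 each, edgeR adjusted p = 0.279 and 0.0803).

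The light chain gene B2m (Entrez gene 12010, chromosome 2, 122147687 to 122153082, plus strand) lies outside the MHC. It stood at 2056 and 2173 CPM in single-positive cells, 2150.0 and 2447 in double-positive cells and 2454 and 2526 in double-negative cells. The double-negative libraries were the highest, but only just, and no comparison passed, with log2 fold changes of 0.12, 0.24 and -0.12 (SE 0.11 each, edgeR adjusted p = 0.501, 0.166 and 0.421). With the length trend of each library removed, B2m, a short transcript of 858 nucleotides, was called higher in double-negative cells than in single-positive cells (0.40, edgeR adjusted p = 0.0377) and lower in double-positive cells than in double-negative cells (-0.57, edgeR adjusted p = 0.00377). Library totals in place of TMM gave both calls too (0.36 and -0.31, edgeR adjusted p = 0.0431 and 0.0357). That scaling also moved the median of all genes, to 0.14 and -0.22.

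The promoters of H2-K1, H2-D1 and B2m are shown because NLRC5 is known to act on these genes and their transcripts differed in pattern here. The sequences are RefSeq promoter windows of GRCm38.p6, read 5′ to 3′ on the strand of the gene and cut to the stretch that holds the matches. Capitals mark matches, on either strand, to an NF-kB motif (GGGA and CC with 4 bases between), to the core of the interferon regulatory factor motif (AANNGAAA), and to TGACG followed by ATTGG, the letters of the X2 and Y boxes of the module at which NLRC5 acts. For B2m, the positions are chr2:122147542-122147646 on the plus strand; for H2-K1, chr17:34000351-34000466 on the minus strand; for H2-D1, chr17:35262915-35263030 on the plus strand.
H2-K1: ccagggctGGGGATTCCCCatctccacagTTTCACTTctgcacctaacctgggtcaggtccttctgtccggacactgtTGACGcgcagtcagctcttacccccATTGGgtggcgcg
H2-D1: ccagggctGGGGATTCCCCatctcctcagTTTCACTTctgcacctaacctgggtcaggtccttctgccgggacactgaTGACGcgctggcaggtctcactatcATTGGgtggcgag
B2m: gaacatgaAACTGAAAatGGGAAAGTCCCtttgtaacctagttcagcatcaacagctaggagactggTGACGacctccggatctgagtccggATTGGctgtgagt

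In all 3 promoters the bases between TGACG and ATTGG numbered 20. From the NF-kB match on, H2-K1 and H2-D1 were identical at 98 of 110 bases compared without gaps (89.1%). The background was 32851 promoter windows of 27025 genes, searched over the 250 bases before the start on both strands. Of these windows, 17.6% held the NF-kB motif, 21.3% the interferon regulatory factor core and 0.381% TGACG and ATTGG with 15 to 25 bases between. All of these were held by 8 windows (0.0244%). The 8 include the windows of the 3 promoters shown. H2-K1 has 2 windows among them, of which the first is shown. In all 3 promoters the NF-kB letters match on both strands, in overlapping stretches. The windows of Tap1 and Psmb9, which share 275 bases, held TGACG and CCAAT letters but not in that spacing, and no window was given for Tap2 or Nlrc5. A match is a description of letters, not of binding.

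Nlrc5 was scarce and highest in the same subset as H2-K1. NLRC5 drives class I genes in lymphoid and other immune cells (Entrez gene 434341, chromosome 8, 94434335 to 94527272, plus strand). Its CPM was 9.34 and 13.3 in single-positive cells, 11.8 and 10.2 in double-positive cells and 33.2 and 19.9 in double-negative cells, from 171 to 659 expected counts a library. Both double-negative libraries lay above all others, though they were far apart from each other. Nlrc5 was 2.34-fold higher in double-negative cells than in single-positive cells (log2 fold change 1.23 (SE 0.28), edgeR adjusted p = 0.0231) and 2.41-fold lower in double-positive cells than in double-negative cells (-1.27 (SE 0.28), edgeR adjusted p = 0.00798). Between the CD115+ subsets no difference was detected (-0.04 (SE 0.28), edgeR adjusted p = 0.943). Without double-negative replicate 1 the first call was lost (edgeR adjusted p = 0.165), as was the second (0.0534). The first was also lost without single-positive replicate 1 (0.156) and the second without double-positive replicate 2 (0.051).

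Over the 6 libraries, Pearson's r of log2(CPM + 1) with Nlrc5 was 0.972 for H2-K1 and 0.921 for Tap1. It was 0.707 for Tap2, 0.628 for B2m, 0.423 for H2-D1, -0.378 for Tapbp, -0.551 for Psmb9, -0.674 for Psmb10 and -0.935 for Psmb8. Among 7339 named genes of at least 5 FPKM, the closest to Nlrc5 were Kat8 (0.994), Orai2 (0.992), Rnf44 (0.992), Hk1 (0.988) and Gramd1a (0.988). These values describe 6 points that fall into 3 groups and share library scaling, and among so many genes some come close to any pattern.

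Psmb8, Psmb9 and Psmb10 encode the 3 inducible catalytic subunits of the immunoproteasome, and Psmb9 and Psmb10 were called in 1 comparison each. Psmb9 (Entrez gene 16912, chromosome 17, 34182030 to 34187330, minus strand) stood at 211 and 239 CPM in single-positive cells, 269 and 280.0 in double-positive cells and 209 and 213 in double-negative cells. The double-positive libraries were the highest and the others overlapped. Psmb9 was 1.30-fold higher in double-positive cells than in double-negative cells (log2 fold change 0.38 (SE 0.11), edgeR adjusted p = 0.0216). Against single-positive cells it did not pass in double-positive cells (0.29 (SE 0.11), edgeR adjusted p = 0.119) or in double-negative cells (-0.09 (SE 0.11), edgeR adjusted p = 0.597).

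Psmb10 (Entrez gene 19171, chromosome 8, 105935728 to 105938392, minus strand) stood at 89.3 and 87.1 CPM in single-positive cells, 95.1 and 111 in double-positive cells and 82.0 and 81.3 in double-negative cells. The subsets did not overlap, but they lay close together. Psmb10 was 1.26-fold higher in double-positive cells than in double-negative cells (0.34 (SE 0.12), edgeR adjusted p = 0.0466), and its other log2 fold changes did not pass (0.22 and -0.11, edgeR adjusted p = 0.242 and 0.546). Psmb8 (Entrez gene 16913, chromosome 17, 34198195 to 34201454, plus strand), at 844 and 818, 786 and 909, and 659 and 740 CPM in the same order of subsets, was called in no comparison (log2 fold changes 0.03, -0.25 and 0.28, each with an SE of 0.12, edgeR adjusted p = 0.899, 0.176 and 0.087). For Psmb8 a difference in double-positive against double-negative cells was called by DESeq2 (adjusted p = 0.0446).

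The proteasome calls depended on scaling and transcript length. With the length trend removed, the log2 fold changes of Psmb9 and Psmb10 in double-positive against double-negative cells were -0.10 and 0.06 (edgeR adjusted p = 0.493 and 0.733). With library totals in place of TMM they were 0.19 and 0.14 (edgeR adjusted p = 0.177 and 0.32), and each was also lost when single libraries of the pair were left out (edgeR adjusted p up to 0.12 and 0.263). Library totals moved the median of all genes to -0.22 in that comparison, from -0.03, and to 0.14 in double-negative against single-positive cells, from 0.02. The share of calls that were higher moved from 48.9% to 30.2% and from 55.4% to 74.3%, and among the 10 genes from 2 of 6 calls to 0 of 5 and from 3 of 3 to 6 of 6. The calls of H2-K1, Tap2 and Nlrc5 held under each of the 8 alternative fits that kept all libraries of the comparison, while H2-K1 counted together with H2-D1 was not called in double-positive against double-negative cells.

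Within a library, the inducible subunits were set against the constitutive ones they replace. The ratio of Psmb8 to Psmb5 in FPKM was 3.97 and 3.09 in single-positive cells, 2.21 and 2.76 in double-positive cells and 2.58 and 3.35 in double-negative cells. The ratio of Psmb9 to Psmb6 was 0.784 and 1.02, 1.13 and 0.868, and 1.33 and 1.18 in the same order, and the double-negative libraries were the highest. The ratio of Psmb10 to Psmb7 was 0.2496 and 0.245, 0.234 and 0.266, and 0.313 and 0.306, again highest in double-negative cells. By FPKM, transcripts of the inducible form outnumbered those of the constitutive one for Psmb8 in every library and were the smaller part for Psmb10. The constitutive partners themselves were lower in double-negative cells than in single-positive cells for Psmb6 and Psmb7, at log2 fold changes of -0.58 and -0.43 (edgeR adjusted p = 0.0439 and 0.022), and both calls were lost in 4 of 6 fits that left out 1 library.

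**Figure D3:**
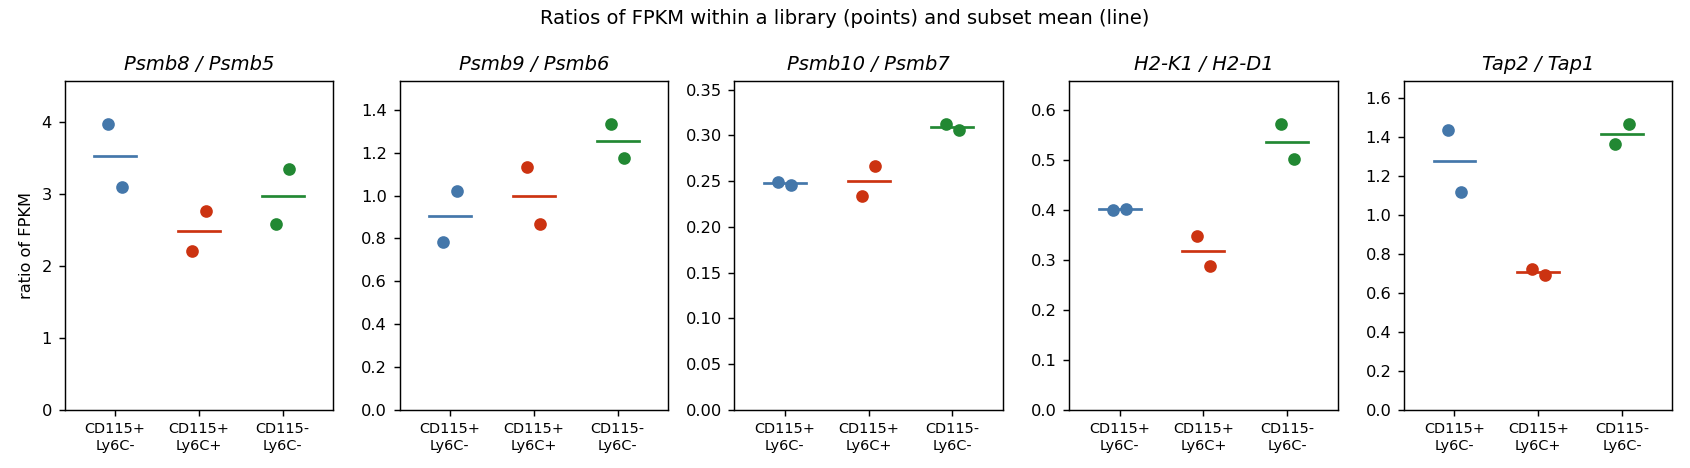
Ratios of FPKM between 2 genes of the same library (points, 2 libraries per subset) with the subset mean (line), on linear axes from 0. The ratio of Tap2 to Tap1 is lowest in double-positive cells, at 0.724 and 0.695, and the ratios of Psmb10 to Psmb7 and of H2-K1 to H2-D1 are highest in double-negative cells.

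On chromosome 17, in or beside the MHC, lie 7 of the 10 genes. Psmb9, Tap1, Psmb8 and Tap2 lie within 34.3 kb of each other in that order. Their calls differed: in double-positive against double-negative cells, Tap1 and Tap2 were lower, Psmb9 was higher and Psmb8 was not called. The log2 fold change of Psmb8 (0.28, SE 0.12) was nevertheless close to that of Psmb9 (0.38, SE 0.11). With the length trend removed, Tap1 and Psmb9 were at -0.28 and -0.10, and neither passed (edgeR adjusted p = 0.114 and 0.493). Among these calls, only that of Tap2 held in every fit.

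Of 7 tested genes of the activator and constitutive subunits, 6 were higher in double-positive cells than in double-negative cells (background 19.2% higher, median log2 fold change 0.73) and 4 were lower in double-negative cells than in single-positive cells (background 6.78% lower, median -0.43). With the length trend removed, 1 of these calls was left in each comparison, that of Psme2, at 0.56 and -0.48 (edgeR adjusted p = 0.00603 and 0.0258). The other log2 fold changes of double-positive against double-negative cells were then 0.08 for Psmb5, 0.35 for Psmb6, 0.24 for Psmb7, -0.06 for Psme1 and 0.23 for Pomp (edgeR adjusted p = 0.663, 0.116, 0.0949, 0.731 and 0.197). Those of double-negative against single-positive cells were -0.44 for Psmb6, -0.29 for Psmb7 and -0.35 for Pomp (edgeR adjusted p = 0.0926, 0.0899 and 0.101). Psme3 passed in no comparison. Psme2, a subunit of the PA28 activator that opens the proteasome, stood at 466 and 442 CPM in single-positive cells, 536 and 625 in double-positive cells and 291 and 293 in double-negative cells. No library of double-negative cells reached the others. Its log2 fold change was 0.99 (SE 0.11) for double-positive against double-negative cells and -0.63 (SE 0.11) for double-negative against single-positive cells (edgeR adjusted p = 3.34e-04 and 0.00891). The second call was lost without single-positive replicate 1 (0.0651) or double-negative replicate 1 (0.0664). Psme1, its partner in PA28, was at 0.33 (SE 0.11, edgeR adjusted p = 0.0478) for double-positive against double-negative cells. That call was lost in 5 of 8 other fits that kept all libraries of the comparison. Among them were library totals (0.14, edgeR adjusted p = 0.372) and limma (0.14, adjusted p = 0.365). With 1 library left out, the log2 fold change was 0.24 to 0.42. Pomp, a chaperone of proteasome assembly, was higher in double-positive cells than in double-negative cells by 0.75 (SE 0.12, edgeR adjusted p = 0.00185). Psmb5 was the 1 gene of this list called between the CD115+ subsets, at a log2 fold change of 0.53 (SE 0.14, edgeR adjusted p = 0.0455), and that call was lost in 5 of 6 fits that left out 1 library.

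Of 7 peptide loading and trimming genes, 0 were called by edgeR in double-positive against single-positive cells, where 1 was higher and 1 lower by unadjusted p under 0.05, 1 each by DESeq2, and 0 and 1 by limma. The smallest adjusted p was that of Erap1 (0.0565), an aminopeptidase that trims peptides in the endoplasmic reticulum. Erap1 stood at 210.0 and 179 CPM in single-positive cells, 150.6 and 144 in double-positive cells and 206 and 204 in double-negative cells, and was lower in double-positive cells than in double-negative cells (log2 fold change -0.48 (SE 0.11), edgeR adjusted p = 0.0103). Its low subset is that of Tap2. In the same comparison the chaperones Calr, Pdia3 and Hspa5 were higher in double-positive cells, by 0.37, 0.44 and 0.49 (edgeR adjusted p = 0.0221, 0.0292 and 0.0368; background 19.2% higher and 20.1% lower). With library totals these were 0.18, 0.24 and 0.30, and none passed (edgeR adjusted p = 0.207, 0.133 and 0.128), nor did any with limma. The call of Erap1 was lost with the length trend removed (-0.26, edgeR adjusted p = 0.11). Pdia3, a partner of tapasin in the loading complex, was also lower in double-negative cells than in single-positive cells (-0.50 (SE 0.13), edgeR adjusted p = 0.0391), a call lost with library totals, limma and the replicate block (adjusted p = 0.0703, 0.0817 and 0.0573). Of these calls, each was lost in 1 to 4 of the 6 fits that left out 1 library.

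Among the other class I and class I-like chains, 11 of 18 genes were tested. In double-positive against single-positive cells 1 was higher, in double-negative against single-positive cells 2 were higher and 1 lower, and in double-positive against double-negative cells 2 were higher and 5 lower, beside the all-gene shares given above (5.26% higher in the first, 8.43% higher and 6.78% lower in the second, 19.2% higher and 20.1% lower in the third). H2-Q7, a non-classical heavy chain gene, stood at 10.6 and 12.3 CPM in single-positive cells, 12.3 and 6.83 in double-positive cells and 60.2 and 42.1 in double-negative cells. Both double-negative libraries were over 3 times the highest of the others. Its log2 fold change was 2.16 (SE 0.28) for double-negative against single-positive cells and -2.42 (SE 0.29) for double-positive against double-negative cells (edgeR adjusted p = 0.00278 and 4.10e-04). H2-Q4 had the same order at a low level, with 4.98 and 2.79 CPM in double-negative cells and 0.734 to 1.45 CPM elsewhere (log2 fold change 2.02 (SE 0.52) against single-positive cells, edgeR adjusted p = 0.0343). That call was lost with the replicate block (edgeR adjusted p = 0.0538) and without double-negative replicate 1 or either single-positive library (0.276, 0.182 and 0.0763). Reads of H2-Q genes may be shared with near-identical copies, so these values are uncertain. H2-T23, which encodes Qa-1, stood at 219.7 and 299 CPM in single-positive cells, 266 and 246 in double-positive cells and 346 and 351 in double-negative cells, and was lower in double-positive cells than in double-negative cells (-0.44 (SE 0.15), edgeR adjusted p = 0.0401), as was H2-T10 (-0.58 (SE 0.19), edgeR adjusted p = 0.037). Those calls were lost in 4 and 6 of the 6 fits that left out 1 library. H2-Q10 was called higher there on 18 and 16 against 3 and 0 expected counts (edgeR adjusted p = 0.0494). That call was lost in 4 of the 6 fits that left out 1 library and in 5 of 8 other fits, among them DESeq2 (adjusted p = 0.0538) and the replicate block (0.0751).

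Class I-like genes with other tasks went both ways. Fcgrt, which encodes the neonatal Fc receptor, an MHC-like chain that pairs with beta-2 microglobulin and binds IgG, stood at 25.7 and 31.0 CPM in single-positive cells, 74.1 and 98.0 in double-positive cells and 11.4 and 15.03 in double-negative cells. The subsets did not overlap and all 3 comparisons passed (log2 fold change 1.60, -1.10 and 2.70, edgeR adjusted p = 0.00274, 0.0102 and 4.69e-05), the second of them lost without single-positive replicate 2 or double-negative replicate 1 (0.0591 and 0.0658). This order is that of the summed monocyte genes and the reverse of Tap2. Mr1, which presents vitamin B metabolites, was lower in double-positive cells than in double-negative cells, at 2.68 and 5.75 against 15.6 and 12.9 CPM (-1.76 (SE 0.37), edgeR adjusted p = 0.00664).

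Of 18 regulators of class I transcription, 0 were called by edgeR in double-positive against single-positive cells (smallest adjusted p = 0.0579, for Irf2), with 3 lower by unadjusted p under 0.05, 2 lower by DESeq2 and 1 lower by limma. In double-negative against single-positive cells, 3 were higher and 1 lower, and in double-positive against double-negative cells, 1 was higher and 6 were lower. The background was 8.43% higher and 6.78% lower in the former and 19.2% higher and 20.1% lower in the latter, where 39.3% of all genes were called in either direction, so the regulators were called about as often as genes at large. Irf1, an activator of class I and immunoproteasome genes, stood at 52.9 and 67.8 CPM in single-positive cells, 60.6 and 53.4 in double-positive cells and 103 and 92.5 in double-negative cells. It was highest in both double-negative libraries (log2 fold change 0.70 (SE 0.15) against single-positive cells, edgeR adjusted p = 0.0185). Irf2, a relative that binds the same element, and Stat2, a subunit of the factor that carries type I interferon signals, were higher in double-negative cells too, by 0.57 (SE 0.14) and 0.72 (SE 0.14) against single-positive cells (edgeR adjusted p = 0.0313 and 0.013). All 3 were lower in double-positive cells than in double-negative cells (log2 fold change -0.78, -1.09 and -1.19, edgeR adjusted p = 0.00424, 6.88e-04 and 4.41e-04), and these calls held whichever library was left out. Those against single-positive cells were lost without double-negative replicate 1, among others (edgeR adjusted p = 0.117, 0.194 and 0.0895).

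Among DNA-binding partners of NLRC5 at class I promoters, Rfx5, Rfxank and Rfxap, the subunits of the factor RFX, passed in no comparison (edgeR adjusted p from 0.339 to 0.984). Nfyb, a subunit of the factor of the Y box, was higher in double-positive cells than in double-negative cells (0.46 (SE 0.10), edgeR adjusted p = 0.00826), and Creb1 was lower (-0.35 (SE 0.10), edgeR adjusted p = 0.0241; 0.01 with the length trend removed). Rela, a subunit of NF-kB, was lower in double-positive cells at 66.9 and 61.4 against 98.4 and 89.0 CPM (-0.55 (SE 0.13), edgeR adjusted p = 0.0102). Socs1, an inhibitor of interferon signalling, was lower too, at 1.28 and 1.38 against 3.52 and 3.78 CPM (-1.45 (SE 0.42), edgeR adjusted p = 0.0249). These 4 calls were lost in 1 to 4 of the 6 fits that left out 1 library. Irf8 passed in no comparison.

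Of 7 interferon receptor and kinase genes, Ifngr2, Jak2 and Ifnar2 were higher and Jak1 was lower in double-positive cells than in double-negative cells (background 39.3% in either direction). The calls of Jak2 and Ifnar2 were lost in 2 and 3 of the 6 fits that left out 1 library. Jak2 was also lost with limma (adjusted p = 0.0793) and Ifnar2 with library totals (0.13). Ifngr2, a chain of the interferon gamma receptor, stood at 89.8 and 105 CPM in single-positive cells, 131.5 and 144 in double-positive cells and 53.4 and 72.8 in double-negative cells. Its log2 fold change was 1.13 (SE 0.16) for double-positive against double-negative cells and -0.63 (SE 0.16) for double-negative against single-positive cells (edgeR adjusted p = 9.90e-04 and 0.0345). Jak1, a kinase of both interferon receptors, had the opposite order, at 261 and 210.5, 169 and 164, and 309 and 296.5 CPM, and was lower in double-positive cells than in double-negative cells by -0.86 (SE 0.12, edgeR adjusted p = 0.00101). Jak1 was also lower in double-positive than in single-positive cells (-0.50 (SE 0.12), edgeR adjusted p = 0.0402). That call and the one of Ifngr2 against single-positive cells were lost in 4 and 3 of the 6 fits that left out 1 library. The chain Ifngr1 passed in no comparison.

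**Figure D4:**
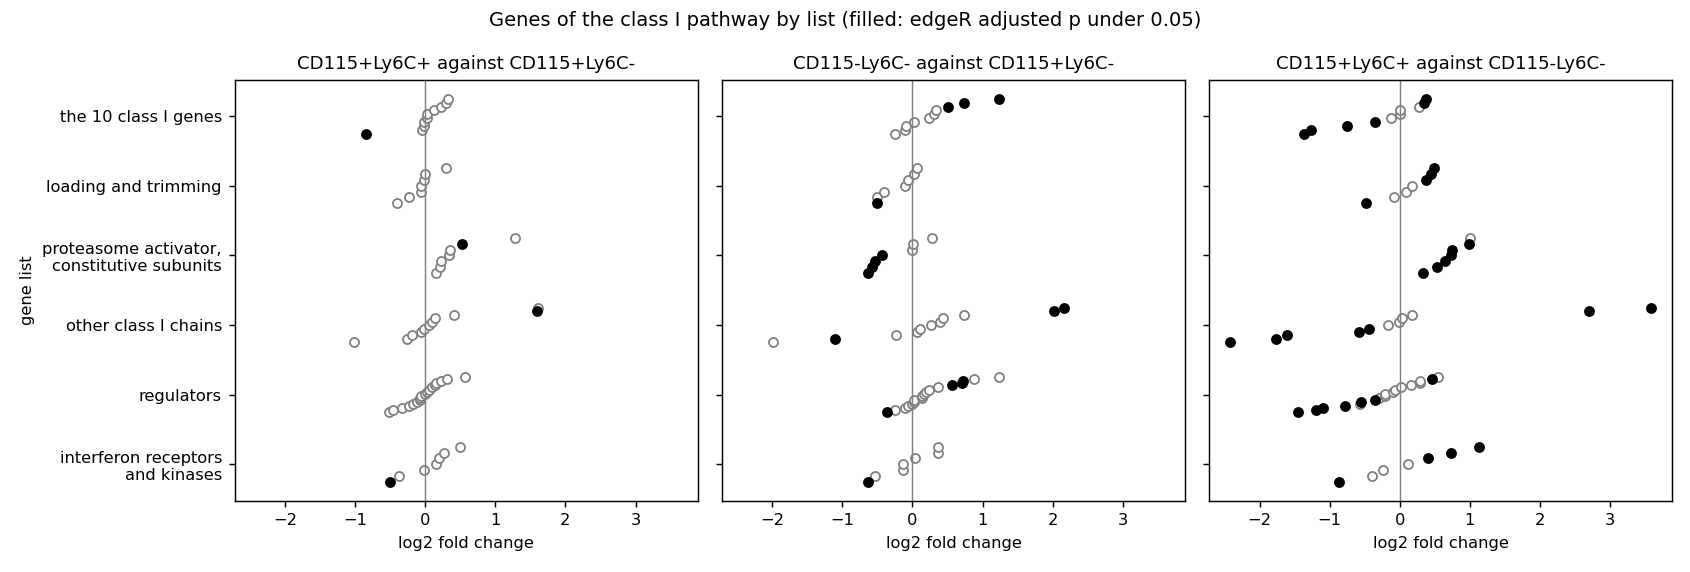
Log2 fold changes of the tested genes of each class I list in the 3 comparisons, 1 point per gene, filled where edgeR adjusted p is under 0.05. In the right panel (double-positive against double-negative cells) 6 of 7 proteasome genes lie filled on the positive side and 6 of 18 regulators filled on the negative side. Of all genes tested, 19.2% were called higher and 20.1% lower there. With the length trend removed, only Psme2 was left of these proteasome calls. The left panel holds few filled points (9.60% of all genes called in either direction).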

How the data were processed

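The data were 6 polyA-selected RNA libraries, grouped by the labels' cell type. The submitters' processing notes name mm10, Bowtie2 and RSEM. The sources used here do not give their versions or settings. The authors deposited, per the file headers, expected counts, which are estimated counts that need not be whole, FPKM and gene length for each sample. The FPKM of the deposited series table equalled those of the sample tables (largest difference 0.0). Genes missing from a table were taken as 0.

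Expected counts were rounded and tested with edgeR 4.0.16 in R 4.3.3, with filterByExpr (minimum count 10, minimum total 15), TMM scaling and 1 coefficient per subset over all 6 libraries (3 residual degrees of freedom, biological coefficient of variation 15.2%). The code was tested on simulated data. Libraries of a subset were no copies of each other (chi-square per degree of freedom 18.84 to 21.42). Alternatives used DESeq2 1.42.0, limma 3.58.1 on log2(FPKM + 1), other scalings, filters and left-out libraries. Positions come from RefSeq GRCm38.p6, the assembly of mm10, and overlaps of exons from GENCODE M21.

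The 10 genes and the pathway lists were chosen with earlier results of these data known. The text names all 10 genes. From each list it names genes past the threshold, at most the 8 with the smallest adjusted p, or with none at most 2. It also names the 5 genes closest to Nlrc5. Others named were chosen after their values were seen. Intervals for counting error are not given.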

Additional observations from a re-analysis of the deposited data

How the results depend on the processing

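The calls of Tap2 in both comparisons with the double-positive subset and of H2-K1 in double-positive against double-negative held under every alternative fit and left-out library, apart from the counting of H2-K1 with other heavy chains, an alternative chosen after the data were seen. The cause of the changes below was not tested. In double-positive against single-positive, DESeq2 called 1 gene of the 10 higher (0 by edgeR). In double-negative against single-positive, library totals called 6 higher (3 with TMM), and left-out libraries gave 0 to 3, with 0 without single-positive replicate 1 or double-negative replicate 1. In double-positive against double-negative, 2 were higher. Library totals, limma and the length trend removed gave 0, and no filter, the replicate block and only the subsets compared gave 1. Left-out libraries gave 0 to 1 higher and 2 to 4 lower (4 with all). Whether libraries of the same replicate number form pairs is not known. Deviations of same-numbered libraries correlated at -0.034 (single-positive with double-positive), -0.044 (single-positive with double-negative) and 0.25 (double-positive with double-negative). With 2 libraries a subset, these values cannot decide it. With the block, all-gene calls were 542 and 423, 847 and 656, and 2249 and 2301 (higher and lower).

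Of the log2 fold changes that turned sign, those of Psmb9, Psme1 and Creb1 in double-positive against double-negative had been called. In double-positive against single-positive, removing the length trend gave -0.17 for B2m, 0.01 for Tap1, -0.16 for Psmb8, -0.02 for Psmb9 and 0.07 for Nlrc5. Library totals and limma gave -0.04 and -0.04 for Tapbp and -0.04 and -0.05 for Psmb8. H2-K1 counted with H2-D1 gave 0.23, and with all listed heavy chains 0.20. In double-negative against single-positive, the length trend gave -0.01 for Tapbp and 0.08 for Psmb9, and library totals and limma gave 0.03 and 0.03 for Psmb9 and 0.01 and 0.01 for Psmb10. In double-positive against double-negative, library totals and limma gave -0.18 and -0.18 for H2-D1 and for Tapbp, and the length trend gave -0.12 for H2-D1, -0.02 for Psmb8, -0.10 for Psmb9, -0.06 for Psme1 and 0.01 for Creb1.

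Left-out libraries turned the sign of these: in double-positive against single-positive H2-K1 (-0.14 to 0.10), Tap1 (-0.18 to 0.14), Tapbp (-0.05 to 0.11), Psmb8 (-0.08 to 0.13) and Nlrc5 (-0.28 to 0.23), in double-positive against double-negative H2-D1 (-0.06 to 0.08) and Tapbp (-0.11 to 0.14), and in double-negative against single-positive Tapbp (-0.11 to 0.14). From expected counts per length the ratio of Psmb10 to Psmb7 was 0.2607 in single-positive and 0.3252 in double-negative cells, beside 0.2475 and 0.3091 from FPKM. With 1 library left in a subset, that library is assumed to vary like the others.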
